A study of Mus musculus with 8 samples.

Results

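The genes followed here belong to the NRF2 antioxidant pathway, and were read in slow-cycling and other bile duct cells of the mouse liver. There are 10 of them, chosen by symbol, the regulators Nfe2l2 and Keap1 and the target genes Gclc, Gclm, Nqo1, Hmox1, Txnrd1, Srxn1, Gsta4 and Gstm1. All 10 were found among the 46603 rows of the count table, and all 10 passed edgeR's expression filter with 13605 genes in total. RNA was sequenced from 8 libraries, 1 of EGFP+EpCAM+CD45- cells (LLRCs, liver label-retaining cells) and 1 of EGFP-EpCAM+CD45- cells (non-LRC cells) from each of 4 mice, JV602, JV621, JV624 and JV6314. Every mouse, and so both groups, carried the same alleles (R26rtTA het/H2B-EGFP het) on a mixed background of C57BL/6 and CBA. The doxycycline-dependent activator rtTA stands in the ubiquitously active Rosa26 locus and drives a histone H2B-EGFP fusion in any cell, so retained green label marks few divisions since labelling and not a cell type. Doxycycline was given to all mice from birth to postnatal day 5 through the nursing mothers, and cells were sorted at 8 weeks of age. No group lacked the transgene or the drug. By the study's account, blood-forming cells of these mice make the fusion without doxycycline as well.

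NRF2, the protein of Nfe2l2, is a transcription factor that turns on genes for glutathione synthesis, quinone reduction, thioredoxin recycling and conjugation of reactive compounds. KEAP1 holds it in the cytoplasm and feeds it to a CUL3 ubiquitin ligase for degradation. Oxidants and electrophiles modify cysteines of KEAP1, NRF2 is then spared, enters the nucleus, pairs with a small MAF protein and binds antioxidant response elements near its targets. Control is therefore mostly at the level of the protein, which RNA does not show. In the liver the pathway is known for its part in handling drugs, bile acids and other reactive compounds.

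The antioxidant response element shows where the target genes carry letters that NRF2 is known to read. Its core, TGACNNNGC, or GCNNNGTCA when it lies on the opposite strand, was searched for on both strands of RefSeq promoter windows of GRCm38.p6, which run from 250 bases before a transcript's start to 50 bases after it. Of 32851 windows, 4071 (12.4%) held the core. The table had 10 windows for 7 of the genes, and 4 windows of 4 genes held it. These 4 stretches are printed 5′ to 3′ on the strand of the gene, with the core in capitals and 10 bases to each side.
Nfe2l2, chr2:75704885-75704913, minus strand: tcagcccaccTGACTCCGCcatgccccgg
Gclm, chr3:122245413-122245441, plus strand: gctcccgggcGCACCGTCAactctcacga
Srxn1, chr2:152105542-152105570, plus strand: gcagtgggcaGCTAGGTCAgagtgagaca
Txnrd1, chr10:82859104-82859132, plus strand: ctggatttttGCTTTGTCAttctgacacg
In Nfe2l2 the core lay on the strand of the gene and began 240 bases before the start. In the other three it lay on the opposite strand, beginning 134 bases before the start in Gclm, 92 bases before it in Txnrd1 (1 of its 3 windows) and 28 bases beyond it in Srxn1. None of the 4 cores overlapped the related letters TGANTCA of the AP-1 factors. The windows of Nqo1, Keap1 and Gstm1 (2 windows) did not hold these letters, and Gclc, Hmox1 and Gsta4 were not matched in the table. A match describes the letters and not a bound site.

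Total counts were 7860021 to 9851819 in the LLRC libraries and 4670132 to 8056103 in the non-LRC libraries. Values are given as CPM, counts relative to a common library size, scaled by TMM, an edgeR correction for differences in library composition. A floor of 3 counts lay between 0.291 and 0.626 CPM, and covers counting error only. The non-LRC library of JV621 stood apart with 14234 genes detected, against 16042 to 20430 in the other libraries. The transcript of the sorted protein EpCAM stood at 583.5 ± 48.6 CPM among LLRCs and 551 ± 148 CPM among non-LRC cells (SD, n = 4), and the bile duct keratins Krt19 and Krt7 were read in every library. Of 18 bile duct markers, 14 had a log2 fold change above 0 and the median was 0.18, and they were not all alike. Aqp1 stood at 5.89 ± 2.01 CPM among LLRCs and 99.5 ± 54.2 CPM among non-LRC cells, without overlap (log2 fold change -4.07, adjusted p = 0.0809 in edgeR), and Cftr had a log2 fold change of 1.44 (adjusted p = 0.688 in edgeR), both named after their values were seen. Markers of other cell types were read as well. Summed over 18 endothelial genes, the level was 37.7 to 88.9 CPM among LLRCs and 306.8 to 1404 CPM in non-LRC libraries. Taking the mice by rising number, the non-LRC sums were 306.8, 1404, 701.5 and 962.9 CPM. Non-LRC Aqp1 values ran in the same order, at 30.2, 150.1, 83.5 and 134.2 CPM, while its LLRC values did not follow the LLRC sums. The part of endothelial cells in the Aqp1 reads was not tested. The sum of 18 hepatocyte genes was 3583 to 3930 CPM in LLRCs, and 3772, 2677, 10130 and 8004 CPM in the non-LRC libraries, taking JV602 first, then JV621, JV624 and JV6314. In these bulk samples, fewer cells of a type and less RNA per cell cannot be told apart. With 4 libraries against 4, the smallest two-sided p of an exact permutation test is 0.029.

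For none of the 10 genes was a difference between LLRCs and non-LRC cells detected beyond the spread between libraries of a group. By the quasi-likelihood test of edgeR, 0 of the 10 had an adjusted p below 0.05 over all 13605 genes, where 0 of 13605 (0%) were called. Their adjusted p lay between 0.977 and 0.9999 in that edgeR test. At an unadjusted p below 0.05 there were also 0 of 10, against 5.16% of all genes tested. By DESeq2's Wald test 0 of the 10 had an adjusted p below 0.05, while 1.62% of all genes were called. The count was also 0 of 10 by edgeR's likelihood ratio test (1.26% of all genes called), its exact test without a filter (0.46%), the newer form of its quasi-likelihood test (0.529%), limma (0%) and the fit with the mouse as a block (0%, and 4.18% at an unadjusted p below 0.05, again with 0 of the 10). In none of the 10 did the 4 LLRC values all lie above or all lie below the 4 non-LRC values, which 4.06% of genes tested did. The fitted log2 fold change, given throughout as LLRC over non-LRC, was below 0 in 9 of 10 genes, beside 51.1% of all genes tested, and in 6 of 10 when the mouse was a block or in limma with quality weights. Their median was -0.26, and that of all genes tested was -0.015.

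**Figure D1:**
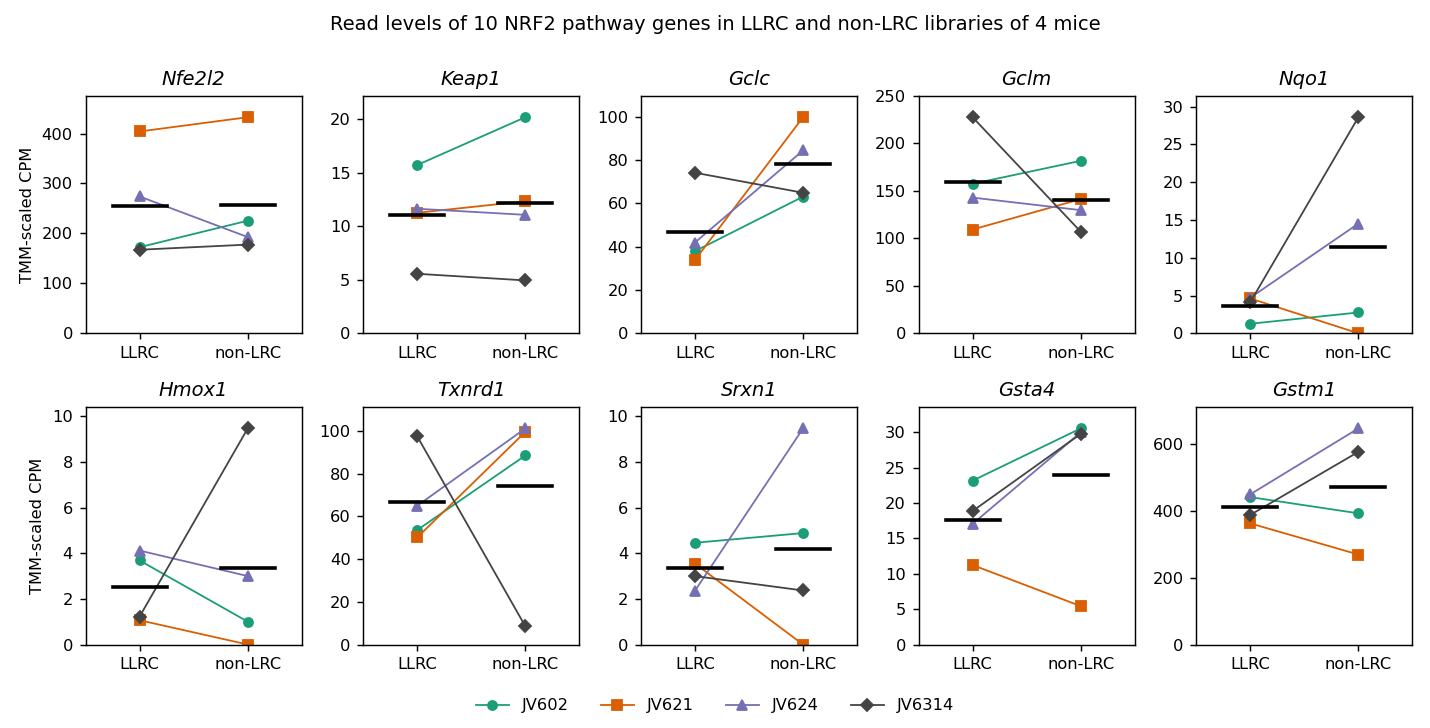
TMM-scaled CPM (vertical axis, linear from 0, a different range in each panel) of the 10 genes in the LLRC and the non-LRC library of each of 4 mice, joined by a line per mouse. Black bars are group means. In every panel the LLRC and non-LRC points overlap in range, and the non-LRC points of Nqo1, Hmox1, Srxn1 and Txnrd1 spread from at or near 0 to the highest values.

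Nfe2l2 (ENSMUSG00000015839), the gene of the activator NRF2, lies on the minus strand of chr2:75675513-75704641 in GRCm38 with the GENCODE M21 annotation, used for all genes here. It stood at 172.4, 404.1, 274 and 167.3 CPM among LLRCs and at 225.4, 432.7, 192.7 and 177.6 CPM among non-LRC cells, with the mice here and below in the order JV602, JV621, JV624 and JV6314. The highest value in either group came from JV621, and the groups overlapped over nearly their whole range. Its log2 fold change was -0.015 (standard error, SE, 0.40, 95% interval -0.92 to 0.89, adjusted p = 0.9999 in edgeR). Within a mouse, the log2 ratio of the LLRC to the non-LRC library had a mean of -0.016 and an SD of 0.37.

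Keap1 (ENSMUSG00000003308), the adaptor that marks NRF2 for degradation, lies on the minus strand of chr9:21229730-21239361. Its LLRC values were 15.7, 11.2, 11.6 and 5.55 CPM, and its non-LRC values were 20.2, 12.3, 11.05 and 4.93 CPM. JV602 was highest and JV6314 lowest in both groups, so that the mice kept their ends of the range in each sort. The log2 fold change was -0.14 (SE 0.52, 95% interval -1.32 to 1.05, adjusted p = 0.9999 in edgeR). Of its exon bases, 10.9% are shared with the antisense gene Gm16754, where counts made without strand mix both genes.

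The ratio of activator to adaptor within a library does not depend on how the library is scaled. Nfe2l2 counts were 10.9, 35.8, 23.4 and 29.9 times the Keap1 counts among LLRCs and 11.2, 34.8, 17.3 and 35.3 times among non-LRC cells. JV602 was low in both groups and JV621 high in both. The mean log2 ratio differed by 0.052 between groups (exact permutation test, two-sided, p = 0.914, adjusted p = 0.914 over the 2 ratios tested), with an SD of 0.75 across LLRC and 0.81 across non-LRC libraries. Within a mouse the SD of the difference was 0.28.

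Gclc and Gclm encode the catalytic and the modifier subunit of glutamate-cysteine ligase, the enzyme of the rate-limiting step of glutathione synthesis. Gclc (ENSMUSG00000032350, chr9:77754535-77794485, plus strand) stood at 37.9, 33.8, 41.9 and 74.2 CPM among LLRCs and at 63.1, 99.8, 84.5 and 64.9 CPM among non-LRC cells. It was lower in the LLRC library in JV602, JV621 and JV624 and higher in JV6314, whose LLRC value was the only one inside the non-LRC range. Its mean was 46.9 ± 18.4 CPM among LLRCs and 78.1 ± 17.4 CPM among non-LRC cells (SD, n = 4). The log2 fold change of -0.73 (SE 0.34, 95% interval -1.49 to 0.027) was the nearest to the threshold among the 10, with p = 0.0571 unadjusted and 0.977 adjusted in edgeR, and an exact permutation p of 0.0857. Without the LLRC library of JV6314 the groups no longer overlapped, which follows from leaving out the only value inside the range. In that setting 5.85% of all genes tested did not overlap, but for those genes the library was not picked by its value. The log2 fold change was then -1.03, and its adjusted p was 0.841 in edgeR (3.65% of all genes had an unadjusted p below 0.05 in that fit, Gclc among them). Of the 10, only Gclc had an unadjusted p below 0.05 with scaling to library size alone (4.94% of all genes), DESeq2's size factors in edgeR (5.28%), DESeq2 itself (7.42%) and limma (6.51%).

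Gclm (ENSMUSG00000028124, chr3:122245557-122270732, plus strand) stood at 157.3, 109.2, 142.8 and 227.4 CPM among LLRCs and 181.5, 141.2, 129.6 and 106.9 CPM among non-LRC cells. JV6314 held both the highest LLRC and the lowest non-LRC value, and the groups overlapped. It was the only one of the 10 with a fitted log2 fold change above 0, at 0.19 (SE 0.30, 95% interval -0.49 to 0.86, adjusted p = 0.9999 in edgeR), and this was -0.026 without the LLRC library of JV6314. Exons of Gclm share 4.71% of their bases with Gm17494 on the opposite strand and 3.88% with the pseudogene Gm6061 on the same strand. Of its 50-base words, 4.58% occur in other annotated genes.

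Reads of the catalytic subunit were fewer per read of the modifier subunit in the LLRC library of each mouse, a difference that did not pass the threshold after adjustment. Within a library the ratio of Gclc to Gclm counts was 0.241, 0.310, 0.294 and 0.326 among LLRCs and 0.348, 0.707, 0.652 and 0.607 among non-LRC cells. Every LLRC library lay below every non-LRC library, and the ratio was lower in the LLRC library in 4 of 4 mice, with JV602 the closest. Corrected for exon length, the ratio was 0.403 to 0.545 among LLRCs and 0.581 to 1.18 among non-LRC cells. The mean log2 ratio was -1.78 ± 0.19 among LLRCs and -0.84 ± 0.46 among non-LRC cells (SD, n = 4), a difference of -0.94. An exact permutation test over libraries gave p = 0.029, two-sided, the smallest it can give, and 0.0571 after adjustment over the 2 ratios tested. Paired by mouse, an exact sign-flip test gave p = 0.125, also the smallest that 4 mice allow. The exact permutation p was 0.0571 when any 1 LLRC library was left out and 0.029 when any 1 non-LRC library was, and the difference stayed between -1.17 and -0.83 with any 1 library left out.

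Such a separation was not rare among ratios that hold Gclc. The count ratio of Gclc to another tested gene was lower in every LLRC than in every non-LRC library for 1396 of 13604 genes (10.3%). The ratio of another tested gene to Gclm was so for 203 of 13604 (1.49%).

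**Figure D2:**
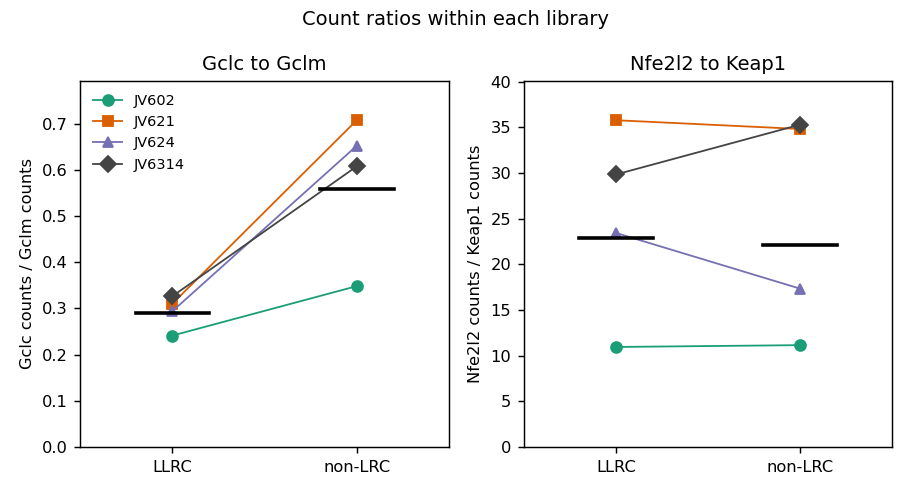
Count ratios within each library (vertical axes, linear from 0) of Gclc to Gclm, left, and of Nfe2l2 to Keap1, right, with a line per mouse and black bars at the mean of the log2 ratios. The 4 LLRC ratios of Gclc to Gclm lie between 0.241 and 0.326, below the non-LRC range of 0.348 to 0.707, while the Nfe2l2 to Keap1 ratios of the groups overlap.

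Nqo1 and Hmox1 encode a quinone reductase and the enzyme that opens the haem ring, which are common readouts of NRF2 activity. Nqo1 (ENSMUSG00000003849, chr8:107388225-107403206, minus strand) had few reads, at 1.26, 4.61, 4.71 and 4.11 CPM among LLRCs and 2.75, 0, 14.5 and 28.6 CPM among non-LRC cells. The non-LRC libraries held both the lowest value, 0 counts in JV621, and the highest, 145 counts in JV6314. Its log2 fold change of -1.64 had a SE of 1.21 and a 95% interval from -4.36 to 1.08 (adjusted p = 0.9999 in edgeR). Without the non-LRC library of JV6314 the log2 fold change was -0.65, and the non-LRC mean was 5.76 in place of 11.5 CPM. It was -0.84 with the mouse as a block and -0.75 in limma.

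The non-LRC libraries with most Nqo1 reads, JV624 and JV6314, were also those with the highest hepatocyte sums (10130 and 8004 CPM), and JV621, without Nqo1 reads, had the lowest (2677 CPM). Most of the hepatocyte markers also had their highest non-LRC values in JV624 and JV6314. The exceptions, seen after their values were known, were Hnf4a, Apob and Tdo2 (189.5, 178.5, 511.6 and 188.6 CPM). Hnf4a (18.2, 28.6, 39.8 and 17.8 CPM) and Apob (28.6, 44.5, 61.1 and 7.10 CPM) were lowest in JV6314. Endothelial sums did not run in that order, with 1404 CPM in JV621. The sum of 14 stellate cell and fibroblast genes, most of it Rgs5, was 3521, 4731, 6108 and 9238 CPM in the non-LRC libraries. Among LLRCs it was 2474, 5641, 9293 and 9953 CPM. Rgs5 averaged 6211 CPM (SD 3238) among LLRCs and 4177 CPM (SD 1790) among non-LRC cells. Of the 9 genes of the list that were tested, 2 had a log2 fold change above 0 and 7 below. The sum therefore does not stand for the list as a whole. Members of that list, picked out after their values were seen, differed. Lum, at 20.2, 0, 153.6 and 161.6 CPM, and Pdgfra ran in the order of the Nqo1 values, while Lrat, at 20.2, 52.6, 39.6 and 74.2 CPM, Rgs5, Col3a1 and Thy1 did not. The pancreatic acinar sum was 1168 CPM in the non-LRC library of JV6314, against 2.13 to 23.4 CPM in the other 7 libraries. Hepatocytes had been spun out before the sort. The part of these cells in the Nqo1 reads was not tested.

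Hmox1 (ENSMUSG00000005413, chr8:75093621-75100589, plus strand) stood at 3.68, 1.06, 4.12 and 1.22 CPM among LLRCs and 1.00, 0, 3.00 and 9.47 CPM among non-LRC cells. In JV602, JV621 and JV624 it was higher in the LLRC library, and JV6314 went the other way. The log2 fold change was -0.41 (SE 1.13, 95% interval -2.97 to 2.14, adjusted p = 0.9999 in edgeR). Its direction was not stable. With the mouse as a block the log2 fold change was 0.72, in limma it was 0.054, and the mean log2(CPM + 1) ratio within a mouse was 0.098 (SD 1.60). Without the non-LRC library of JV6314 the edgeR value was 0.90, and the non-LRC mean was 1.33 in place of 3.37 CPM. Erythroid genes, which mark red cells rich in haem, summed to 111.6 and 457.6 CPM in the LLRC and non-LRC libraries of JV624 and to at most 15.98 CPM elsewhere. In JV624, Hmox1 was the highest of the LLRC libraries (4.12 CPM). Among the non-LRC libraries JV624 (3.00 CPM) was below only JV6314 (9.47 CPM). Leukocytes and Kupffer cells, which carry CD45, were depleted with beads and gated out in the sort. Summed over 17 leukocyte and Kupffer cell markers, of which 2 had no reads in any library, the level was 104.6 to 143.3 CPM in the LLRC libraries and 104.8 to 150.9 CPM in the others, and most of it was Cd14 (97.3 ± 13.4 and 97.9 ± 16.4 CPM, SD, n = 4). The 3 defining markers of that list did not run together. Ptprc, the gene of CD45, was read at 0.485, 4.02, 2.06 and 6.55 CPM among LLRCs and at 0, 0, 0 and 1.38 CPM among non-LRC cells, while Adgre1 and Clec4f had no reads in any LLRC library and 1.58 to 6.16 CPM in the non-LRC libraries of JV624 and JV6314. The part of red cells, leukocytes and Kupffer cells in the Hmox1 reads was not tested.

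Txnrd1 (ENSMUSG00000020250, chr10:82833951-82897712, plus strand) encodes the cytosolic enzyme that reduces thioredoxin with NADPH. Its values were 53.6, 50.1, 65 and 97.5 CPM among LLRCs and 88.5, 99.6, 101.2 and 8.49 CPM among non-LRC cells. The non-LRC library of JV6314, with 43 counts, lay far below all others, while the LLRC library of the same mouse was the highest of its group. With JV6314 included the log2 fold change was -0.16 (SE 0.63, 95% interval -1.58 to 1.25, adjusted p = 0.9999 in edgeR). In the other 3 mice the LLRC library was lower than the non-LRC library. Without that non-LRC library the log2 fold change was -0.53, and with all 8 libraries and the mouse as a block it was 0.038.

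Srxn1 (ENSMUSG00000032802, chr2:152105516-152111376, plus strand) encodes sulfiredoxin, which repairs overoxidized peroxiredoxins. It stood at 4.46, 3.55, 2.35 and 3.00 CPM among LLRCs and 4.88, 0, 9.47 and 2.37 CPM among non-LRC cells. The 4 LLRC values lay close together, inside the wider non-LRC range. The log2 fold change was -0.33 (SE 1.00, 95% interval -2.59 to 1.94, adjusted p = 0.9999 in edgeR), and it was 0.37 with the mouse as a block and 0.45 without the non-LRC library of JV624, whose removal took the non-LRC mean from 4.18 to 2.42 CPM.

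Gsta4 and Gstm1 encode glutathione S-transferases, which join glutathione to reactive compounds. GSTA4 is known for its activity on hydroxynonenal, a product of lipid peroxidation. Gsta4 (ENSMUSG00000032348, chr9:78182774-78209349, plus strand) stood at 23.2, 11.2, 17.1 and 18.9 CPM among LLRCs and 30.6, 5.43, 30 and 29.8 CPM among non-LRC cells. The non-LRC libraries of JV602, JV624 and JV6314 lay within 1 CPM of each other above all LLRC values, and that of JV621 below them all. Over all 8 libraries the log2 fold change was -0.45 (SE 0.54, 95% interval -1.66 to 0.77, adjusted p = 0.9999 in edgeR). Without the non-LRC library of JV621 the groups did not overlap, which follows from its value being the only one not above the LLRC range. In that setting 8.73% of all genes tested did not overlap, but for those genes the library was not picked by its value. The log2 fold change was then -0.77, with an adjusted p of 0.522 in edgeR. In that setting 8.9% of all genes had an unadjusted p below 0.05, and among the 10 these were Gsta4 and Nqo1.

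Gstm1 (ENSMUSG00000058135, chr3:108012255-108017973, minus strand) was the most abundant of the 10. Its values were 441, 362.4, 449.3 and 387.7 CPM among LLRCs and 392.5, 269.2, 646.5 and 576.4 CPM among non-LRC cells. The LLRC libraries differed little from each other, with an SD of 41.9 CPM against 172.1 CPM among non-LRC cells, and lay inside the non-LRC range. The log2 fold change was -0.20 (SE 0.31, 95% interval -0.89 to 0.49, adjusted p = 0.9999 in edgeR). Reads of Gstm1 are partly uncertain, since 18.9% of the 50-base words of its exons occur in other genes, 14.1% in the pseudogene Gstm2-ps1.

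**Figure D3:**
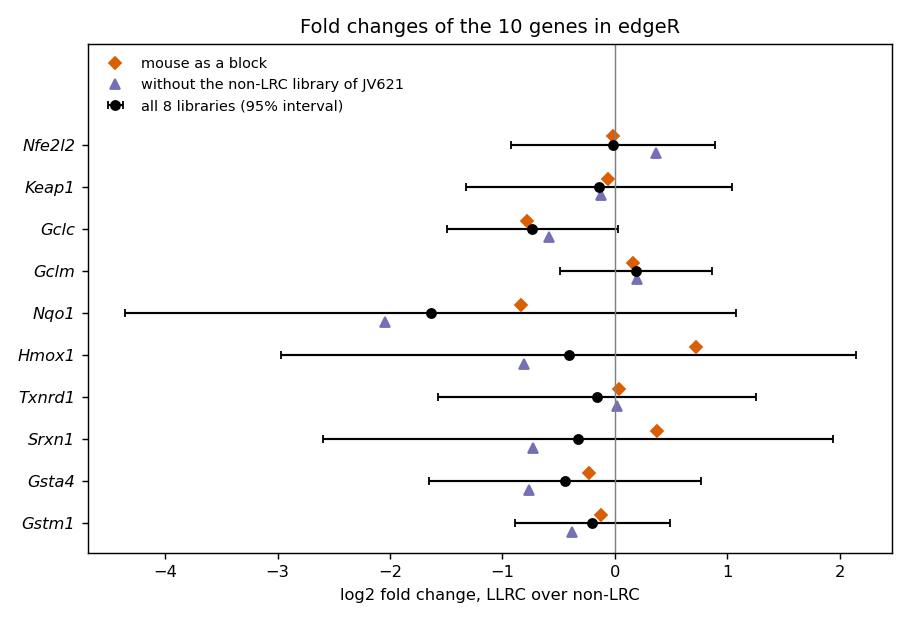
Log2 fold change of LLRC over non-LRC (horizontal axis) for the 10 genes from edgeR. Black points and bars are the fit to all 8 libraries with 95% intervals, diamonds the fit with the mouse as a block, and triangles the fit without the non-LRC library of JV621. Every interval includes 0, and those of Nqo1, Hmox1 and Srxn1 are the widest.

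The precision of these comparisons differed by gene. The 95% interval lay within a log2 fold change of 1 to either side of 0 for 3 of the 10 genes, Nfe2l2, Gclm and Gstm1. For Nqo1, Hmox1 and Srxn1, with at most 145 counts in any library, it spanned more than 4 log2 units, and a change of several fold in either direction would not have been detected. The coefficient of variation was larger among non-LRC than among LLRC libraries for 8 of the 10 genes, in which it was 36.5% to 126.3% against 10.2% to 63.6%. Gclc and Gclm went the other way, at 22.3% among non-LRC libraries against 39.3% and 31.2% among LLRC libraries. The same count over all genes tested was not made, so a wider non-LRC spread is not shown to be particular to these genes. The 3 genes with 0 counts in any library, Nqo1, Hmox1 and Srxn1, had them in the non-LRC library of JV621, in which 0 counts allow up to 0.626 CPM.

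Levels were compared between genes as CPM per kilobase of exon. In LLRCs the order was Gstm1 (278.4 ± 28.4), Nfe2l2 (67.0 ± 29.3), Gclm (25.3 ± 7.91), Gsta4 (13.9 ± 3.91), Gclc (12.5 ± 4.90), Txnrd1 (9.39 ± 3.04), Nqo1 (2.36 ± 1.05), Keap1 (2.35 ± 0.89), Hmox1 (1.44 ± 0.92) and Srxn1 (1.18 ± 0.32), with SD over 4 libraries. Gstm1, Nfe2l2 and Txnrd1 were each separated from the next gene in every library, and the other neighbours overlapped in range. In non-LRC cells Gstm1 stood at 319.8 ± 117 and Nfe2l2 at 67.7 ± 31.3 CPM per kilobase, again ahead of Gclm at 22.2 ± 4.96, and below these the ranges of all neighbours overlapped. By their means, Gclc (20.7 ± 4.63) and Gsta4 (18.9 ± 9.75) stood in the opposite order there, which rested on JV621 (26.5 and 4.29). In the other non-LRC libraries Gsta4 was above Gclc, at 24.1 and 16.8 in JV602, 23.7 and 22.4 in JV624, and 23.5 and 17.2 in JV6314. The transcript of the activator was read at a higher level per kilobase than that of its adaptor in each of the 8 libraries.

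**Figure D4:**
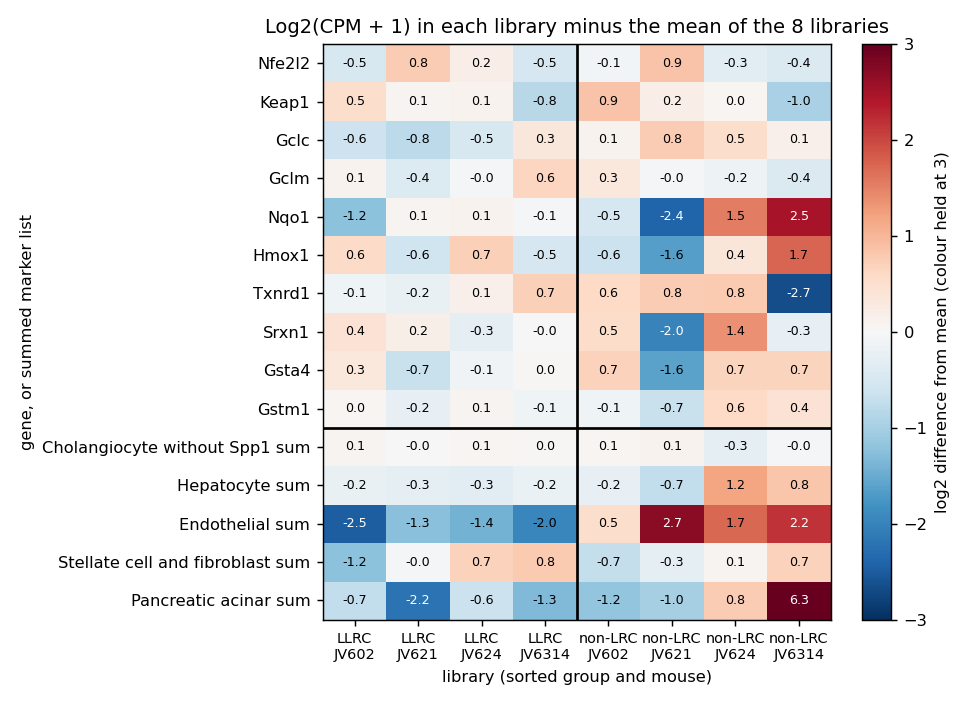
Log2(CPM + 1) of the 10 genes and of 5 summed marker lists (rows) in each of the 8 libraries (columns), minus the mean of the row. Numbers are log2 differences, and the colour scale is held at 3. The non-LRC libraries of JV621 and JV6314 carry the lowest values of Nqo1, Hmox1, Srxn1 and Gsta4 and of Txnrd1, respectively, and the endothelial sum is above its mean in every non-LRC library.

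Genes with the most similar pattern were sought among 8366 genes with a mean of at least 10 CPM, by the root mean square difference of mean-centred log2(CPM + 1) over the 8 libraries. Among the closest to Gclc were Hmgn3 (0.216) and Dus2 (0.239). Gstm1 was closest to Gstm2-ps1 (0.0548), with which it shares sequence, and Oaz1 (0.109) was also near. The closest to Nfe2l2 were Ric8b (0.168), Car2 (0.189) and Ccnc (0.197), and to Keap1 Rmc1 (0.196), Cipc (0.199) and Rela (0.234). Snx4 (0.157), Tdp2 (0.180) and Ecpas (0.199) came nearest to Gclm, and Banf1 (0.184), Nans (0.220) and Grcc10 (0.229) to Gsta4. Nqo1, Hmox1 and Srxn1, with means below 10 CPM, were not compared. Of those compared, Txnrd1 had the most distant neighbours, with Fam49b at 0.285, Ccdc117 at 0.364 and Zfp655 at 0.365.

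Of 108 other genes of antioxidant and detoxification metabolism with a row, 96 were tested. In edgeR, 0 of the 96 had an adjusted p below 0.05. At an unadjusted p below 0.05, 2 were higher and 2 lower in LLRCs, against 1.6% higher and 3.56% lower among all genes tested. Their median log2 fold change was -0.11, with 36 above 0 and 60 below. In 4 of the 96 the groups did not overlap, 3 with higher and 1 with lower LLRC values, beside 2.15% and 1.91% of all genes tested.

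Among partners and regulators of NRF2, 10 of 15 had a log2 fold change above 0 and the median was 0.27. Gsk3b, a kinase that marks NRF2 for a second route of degradation, had the highest level per kilobase when averaged over all 8 libraries, though not among non-LRC cells alone, where Sqstm1 was higher. Gsk3b stood at 1049 ± 458 CPM among LLRCs and 682.1 ± 191 CPM among non-LRC cells (SD, n = 4). BACH1 and BACH2 are repressors that bind the same element as NRF2. Bach2 had a log2 fold change of 1.81 (SE 1.46) and was higher in the LLRC library of 4 of 4 mice, with overlapping groups, and Bach1 stood at -0.55 (SE 0.71).

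In glutathione synthesis and cystine supply, 8 genes were tested and the median log2 fold change was -0.079. Ggt1, which splits extracellular glutathione and also stands among the bile duct markers, was read at 10.5, 7.45, 5.44 and 7.77 CPM among LLRCs and 2.38, 0, 0.789 and 4.93 CPM among non-LRC cells. The groups did not overlap, as in 2.15% of all genes in that direction, and the log2 fold change of 1.93 had a SE of 0.98 (adjusted p = 0.9999 in edgeR). Slc3a2, the heavy chain of the cystine carrier, was likewise separated with lower LLRC values, at 52.0 to 67.9 CPM against 69.9 to 87.6 CPM (log2 fold change -0.39, SE 0.24), where 1.91% of all genes were so. Chac2, which breaks glutathione down, was the most abundant per kilobase, at a log2 fold change of -0.10, and Oplah, which recycles oxoproline, stood at -0.82 (SE 0.63).

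Glutathione peroxidases had a median of -0.36 over 6 genes, with 1 above 0, Gpx2 at 0.31 (SE 0.99). Gpx1, the most abundant, stood at 124.2 to 166.2 CPM among LLRCs and at 157.5, 99.4, 670.2 and 251.2 CPM among non-LRC cells, with a log2 fold change of -1.04 (SE 0.54). Its 2 highest libraries were the non-LRC libraries of JV624 and JV6314, which also held the highest hepatocyte sums. Other sums peaked there too, the erythroid sum in JV624 (457.6 CPM) and the pancreatic acinar sum in JV6314 (1168 CPM). The stellate cell and fibroblast sums of these 2 libraries (6108 and 9238 CPM) were the highest of the non-LRC libraries, but LLRC sums reached 9953 CPM. The part of any of these cells in the Gpx1 reads was not tested. Other glutathione S-transferases had a median of -0.39 over 18 genes, 15 of them below 0. Gstm3, which shares words with Gstm1, had the lowest log2 fold change at -1.86 (SE 0.84). Its non-LRC values of 14.7, 4.803, 62.2 and 107.5 CPM ran in the order of the hepatocyte sums except that JV6314 was highest. The part of hepatocytes or other cells in the Gstm3 reads was not tested. Mgst1, the membrane-bound transferase read most per kilobase, was at 1461 ± 289 and 1502 ± 283 CPM, and Gstm5 stood at 0.30 on the log2 scale (SE 0.45).

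In the thioredoxin and peroxiredoxin system, 17 genes had a median of -0.045. Txn1, the substrate of the Txnrd1 enzyme, was read at 239.3 ± 48.1 CPM among LLRCs and 219.8 ± 86.5 CPM among non-LRC cells. Sesn3, a sestrin, had a log2 fold change of 2.35 (SE 1.1) on at most 4.12 CPM, and Msrb1, which repairs oxidized methionine, one of -1.05 (SE 0.66). Among 7 genes of NADPH supply the median was -0.25. Idh1, the cytosolic isocitrate dehydrogenase, was at 177.7, 218, 236.8 and 255.6 CPM among LLRCs and 208.9, 593.9, 513.9 and 359.5 CPM among non-LRC cells, lower in the LLRC library of 4 of 4 mice (log2 fold change -0.92, SE 0.34, adjusted p = 0.819 in edgeR). Malic enzyme, Me1, stood at -1.09 (SE 0.56) and G6pdx, the first enzyme of the pentose phosphate pathway, at 0.74 (SE 1.08).

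In iron and haem handling, 7 of 8 genes were below 0 and the median was -0.22. The exception was Slc40a1, which encodes the iron exporter ferroportin. It stood at 314.9, 284.1, 228.8 and 255.8 CPM among LLRCs and at 222.2, 225.3, 152.2 and 123.5 CPM among non-LRC cells, without overlap, as in 2.15% of all genes in that direction (log2 fold change 0.58, SE 0.27, adjusted p = 0.993 in edgeR). Fth1, the heavy chain of the iron store ferritin, was at -0.061 (SE 0.29) and Blvrb, a biliverdin reductase, at -0.71 (SE 0.43).

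Detoxification enzymes and efflux pumps had a median of -0.040 over 13 genes. Ptgr1, which reduces reactive aldehydes and ketones, was read at 126.7, 132.9, 127.7 and 154.2 CPM among LLRCs and at 77.1, 119.9, 74.8 and 54.5 CPM among non-LRC cells. Its groups did not overlap (2.15% of all genes in that direction), and the log2 fold change was 0.73 (SE 0.29, adjusted p = 0.885 in edgeR). Abcc2, an export pump for conjugates, had a log2 fold change of 2.65 (SE 1.15, adjusted p = 0.951 in edgeR) on values from 0.441 to 10.6 CPM among LLRCs and 0 to 1.503 CPM among non-LRC cells. Akr1a1, the most abundant aldo-keto reductase, stood at -0.040 (SE 0.22) and Akr1b3 at -0.78 (SE 0.56). Of superoxide dismutases and catalase, Cat stood at -0.17 (SE 0.32), Sod2 at 0.094 (SE 0.33) and the extracellular Sod3 at -1.19 (SE 0.43, adjusted p = 0.792 in edgeR), lower in the LLRC library of 4 of 4 mice.

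**Figure D5:**
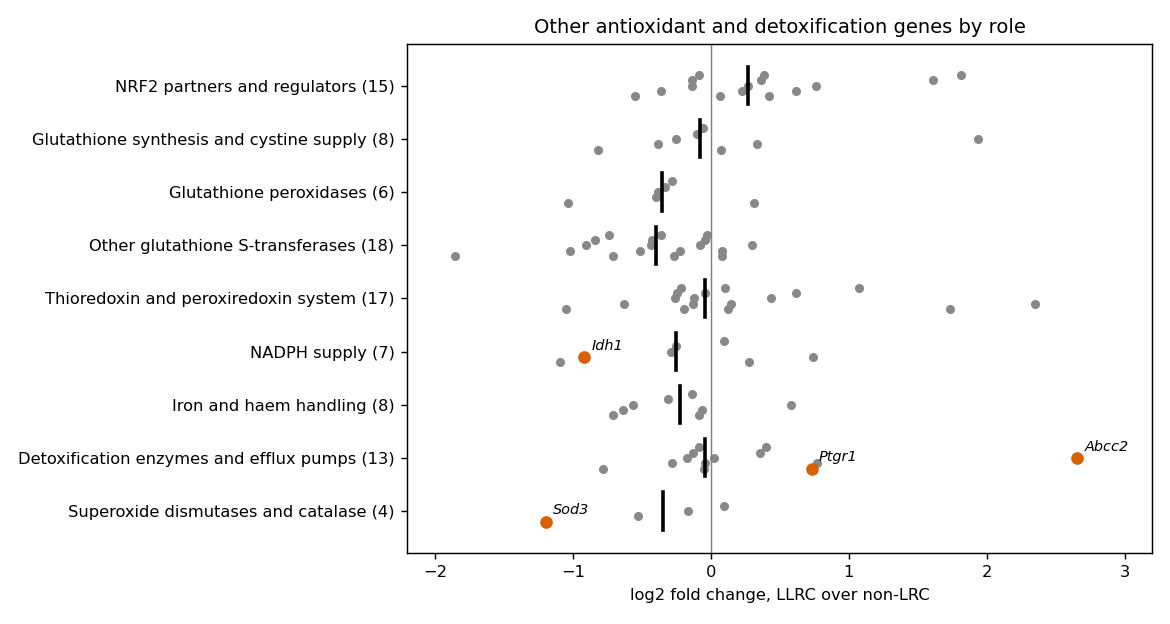
Log2 fold change of LLRC over non-LRC (horizontal axis) for 96 other antioxidant and detoxification genes by role, with the number of genes tested in brackets and a black bar at each median. Coloured, named points are the 4 genes with an unadjusted p below 0.05 in edgeR, Abcc2 and Ptgr1 higher and Idh1 and Sod3 lower in LLRCs, and none had an adjusted p below 0.05.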

How the data were processed

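With HTSeq, the authors counted reads per Ensembl gene of GRCm38.p4 over exons, without regard to strand, and deposited raw counts for 46603 genes in 8 libraries. Per the labels, edgeR 3.2.4 was used for their comparison, whose deposited fold changes and p-values were not used here. The aligner is not given in the sources used here. Symbols and positions came from GENCODE M21, for 46091 genes.

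From the counts, 13605 genes passed filterByExpr and were tested with edgeR 4.0.16 (R 4.3.3) by the quasi-likelihood test with TMM scaling (factors 0.816 to 1.23), the group as the only term and Benjamini-Hochberg adjustment at 0.05. Standard errors were derived from the F statistic. Ratios within a library used a prior of 0.5 counts on the log2 scale and single genes log2(CPM + 1), with exact permutation tests. DESeq2 1.42.0 and limma 3.58.1 gave alternatives. The tests were tried on simulated data with large planted changes, which does not measure their power for changes of the size seen here.

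Both libraries of a mouse come from 1 animal, so the mouse pairs them. Over genes, Pearson's r of their deviations was 0.0961 in JV602, 0.0737 in JV621, 0.00334 in JV624 and 0.171 in JV6314. The gene lists were chosen with earlier results of these data known. Of each role in the wider list, the text names the gene with the highest level per kilobase, the largest increase, the largest decrease and any with an unadjusted p below 0.05. Slc3a2 was named after its values were seen. Some genes of similar pattern are not reported here.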

Additional observations from a re-analysis of the deposited data

Results flagged for a closer look

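In 2 of 24 groups of 4 values, a single library lay apart, which by chance happens in about 1 in 20 groups. Txnrd1 stood at 8.49 CPM in the non-LRC library of JV6314, against 88.5 to 101.2 CPM in the other non-LRC libraries. Gsta4 stood at 5.43 CPM in the non-LRC library of JV621, against 29.8 to 30.6 CPM in the others.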

How the results depend on the processing

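None of the 10 genes and none of the wider list had an adjusted p below 0.05 under any of the 21 alternatives. The count over all genes was 0 in the quasi-likelihood test of edgeR (702 at an unadjusted p below 0.05). It was 11 without an expression filter, 221 with DESeq2, 127 with edgeR's exact test, 171 with its likelihood ratio test and 72 with the newer quasi-likelihood form, 0 to 6 with a library left out (6 without the non-LRC library of JV602) and 1 without the non-LRC libraries of JV621 and JV6314, a setting chosen after seeing the data, as was leaving out both libraries of JV621. The cause of these differences was not tested.

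Gclc, Nqo1, Gsta4 and Gstm1 kept a log2 fold change below 0 in all 21 alternatives, at -1.03 to -0.46, -2.18 to -0.65, -0.78 to -0.23 and -0.38 to -0.01. Gclc had an unadjusted p below 0.05 with DESeq2's size factors in edgeR, with library size only, in DESeq2, in limma and without the LLRC library of JV6314. That of Nfe2l2 turned to 0.024 without a filter and in the exact test, 0.0089 with a filter of 1 CPM in 2 libraries, 0.029 with upper-quartile scaling, 0.30 in limma, 0.049 without both libraries of JV621 and 0.30 without the non-LRC libraries of JV621 and JV6314. Hmox1 turned to 0.054 in limma and to 0.35 without those 2 non-LRC libraries, and Txnrd1 to 0.036 in limma and 0.13 without both libraries of JV621. With a library left out, the ranges were -0.32 to 0.37 for Nfe2l2, -0.39 to 0.21 for Keap1, -0.026 to 0.34 for Gclm, -0.81 to 0.90 for Hmox1, -0.53 to 0.018 for Txnrd1 and -0.73 to 0.45 for Srxn1, and 0 or 1 of the 10 genes had groups that did not overlap, beside 5.4% to 10.3% of all genes tested in these settings. With the mouse as a replicate block, the signs of Hmox1 (0.72), Txnrd1 (0.038) and Srxn1 (0.37) turned, and no gene's adjusted p crossed 0.05. At an unadjusted p below 0.05 there were 569 genes under the block, 5 of them of the wider list, against 702 and 4 without it. The median of all genes moved to 0.14 under the block and to 0.10 in limma. In mean log2 differences, Nqo1 turned to 0.028 with a pseudocount of 0.1 CPM, and Hmox1 to -0.054 and Srxn1 to -0.037 with one of 5 CPM.

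The log2 ratio of Gclc to Gclm differed by -1.17 to -0.83 with a library left out, -0.86 without both libraries of JV621 (exact permutation p = 0.1) and -0.71 without the 2 non-LRC libraries (exact permutation p = 0.0667), and with the mouse as a block the difference was -0.94 (exact sign-flip p = 0.125). The last 3 of these exact tests cannot reach 0.05 with so few libraries, and without 1 library the exact permutation p was 0.029 or 0.0571. That of Nfe2l2 to Keap1 lay between -0.28 and 0.41 with a library left out, and was 0.72 without the 2 non-LRC libraries (exact permutation p = 0.333). Nqo1, Hmox1 and Srxn1 had at most 145 counts in any library, and the parts of depth and of spread between libraries in their wide intervals were not tested.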
